A study of Homo sapiens with 6 samples.

Results

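The 10 genes described here encode the main heat shock chaperones of the cytosol and nucleus, out of 16655 genes in the deposited expression table. They were chosen by gene symbol: HSPA1A, HSPA1B, HSPA8, HSPH1, DNAJB1, DNAJA1, BAG3, HSP90AA1, HSP90AB1 and HSPB1. All 10 had a row in the table, and all 10 passed the filter on low counts that left 13002 genes for testing. From general knowledge of their regulation, 7 were classed as inducible (HSPA1A, HSPA1B, HSPH1, DNAJB1, HSP90AA1, HSPB1 and BAG3) and 3 as mainly constitutive (HSPA8, HSP90AB1 and DNAJA1).

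RNA was sequenced from HEK-293T cells, an established line from human embryonic kidney with the SV40 large T antigen. The control group (GFP, 3 libraries) was transfected with the empty pEGFP-C1 vector and expresses GFP alone. The other group (RfA1, 3 libraries) was transfected with the same vector carrying squid reflectin A1 fused to GFP, with its codons adapted to human cells. Both groups share the cell line, the transfection by the Lipo3000 protocol at about 70% confluence and, by the sample labels, a further 24 h of culture before harvest by trypsin. The transfection was transient, so each library can hold cells with and without the plasmid, and no untransfected group was analysed here. The sources used here do not say whether the 3 libraries of a group came from separate cultures, and the p-values then measure only the spread between these libraries.

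Cytosolic chaperones hold unfolded or newly made proteins in solution and help them to fold. HSP70 proteins bind exposed hydrophobic stretches in a cycle driven by ATP, J-proteins (HSP40) deliver clients and start the hydrolysis of ATP, exchange factors release the client again, and HSP90 proteins act later on kinases, steroid receptors and other clients. When unfolded proteins accumulate, the transcription factor HSF1 is freed from chaperones and binds heat shock elements, which are inverted repeats of the letters GAA spaced by a pair of bases. Some of these genes are nearly silent until then in many cells, whereas others are transcribed at high levels in every growing cell. The comparison asks whether the level of these transcripts differed in cells that express RfA1.

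The letters of heat shock elements are shown for the regions around the starts of the chaperone genes, since HSF1 is known to act through this element. The sequences are those of RefSeq on GRCh38.p14, in windows of 250 bases before to 50 bases after each annotated start. All 10 genes were matched, with 15 start sites. A match of 2 units was searched as GAANNTTC or TTCNNGAA and a match of 3 units as GAANNTTCNNGAA or TTCNNGAANNTTC. Each pattern set reads the same on both strands, and a match of 3 units contains overlapping matches of 2. Stretches around the densest group of matches before a start are printed for the genes with such a match, except DNAJA1. They read 5′ to 3′ on the strand of the gene, with GAA and TTC of the matches in capitals. Counted along the gene, they lie before start 2 of DNAJB1 and of HSP90AA1 and before start 3 of HSP90AB1. The earlier starts of these genes held no match.
HSPA1A (chr6:31815422-31815459, plus strand): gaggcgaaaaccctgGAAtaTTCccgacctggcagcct
HSPA1B (chr6:31827618-31827655, plus strand): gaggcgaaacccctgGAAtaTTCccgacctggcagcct
DNAJB1 (chr19:14518422-14518489, minus strand): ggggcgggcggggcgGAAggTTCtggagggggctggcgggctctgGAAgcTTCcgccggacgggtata
HSP90AA1 (chr14:102087090-102087147, minus strand): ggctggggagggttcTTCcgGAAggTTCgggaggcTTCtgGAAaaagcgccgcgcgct
HSP90AB1 (chr6:44247763-44247858, plus strand): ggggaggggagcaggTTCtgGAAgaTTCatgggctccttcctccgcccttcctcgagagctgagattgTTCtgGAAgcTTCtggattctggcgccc
HSPA8 (chr11:123062164-123062206, minus strand): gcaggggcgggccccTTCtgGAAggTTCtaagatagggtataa
HSPB1 (chr7:76302476-76302513, plus strand): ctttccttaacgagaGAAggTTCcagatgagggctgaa

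Of the 10 genes, 8 held a match of 2 units near at least 1 start (9 of their 15 start sites), against 13.5% of 35116 RefSeq promoter windows of this length. Matches of 3 units were found at 4 genes (4 of 15 start sites), HSP90AA1, HSPA8, HSP90AB1 and DNAJA1, against 0.490% of all windows. That of DNAJA1 lay after the start, and the stretches printed end at the start. DNAJA1 also held a match of 2 units before the start, whose stretch is not printed here. The 3 constitutive genes were all among these 4, whereas the inducible genes HSPA1A, HSPA1B, DNAJB1 and HSPB1 held matches of 2 units. HSPH1 and BAG3 held none in these windows. The stretches of HSPA1A and HSPA1B differed at 1 of 38 bases. A match of letters is a description and not evidence of binding.

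With RfA1, none of the 10 chaperone genes passed the threshold of 0.05 on p-values from the quasi-likelihood test of edgeR, adjusted by Benjamini-Hochberg over all 13002 genes, against 0.0769% of all tested genes. DESeq2 and limma-trend also called 0 of the 10. At an unadjusted p under 0.05 in edgeR's test, 3 of the 10 were higher with RfA1 (HSPH1, HSP90AB1 and DNAJB1), against 7.3% of all tested genes, and 0 were lower, against 6.64%. The log2 fold change was above 0 for 8 of the 10 chaperone genes and for 6439 of all 13002 genes. Its median was 0.11 over the 10 genes, 0.091 over the 7 inducible ones and 0.15 over the 3 constitutive ones, against -0.0024 over all genes. In CPM (counts scaled to a common library size after TMM normalization), the 3 RfA1 libraries lay above the 3 GFP libraries for 2 of the 10 genes, HSPH1 and DNAJB1, against 9.86% of all tested genes, and below them for 0 of the 10, against 8.01%.

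**Figure D1:**
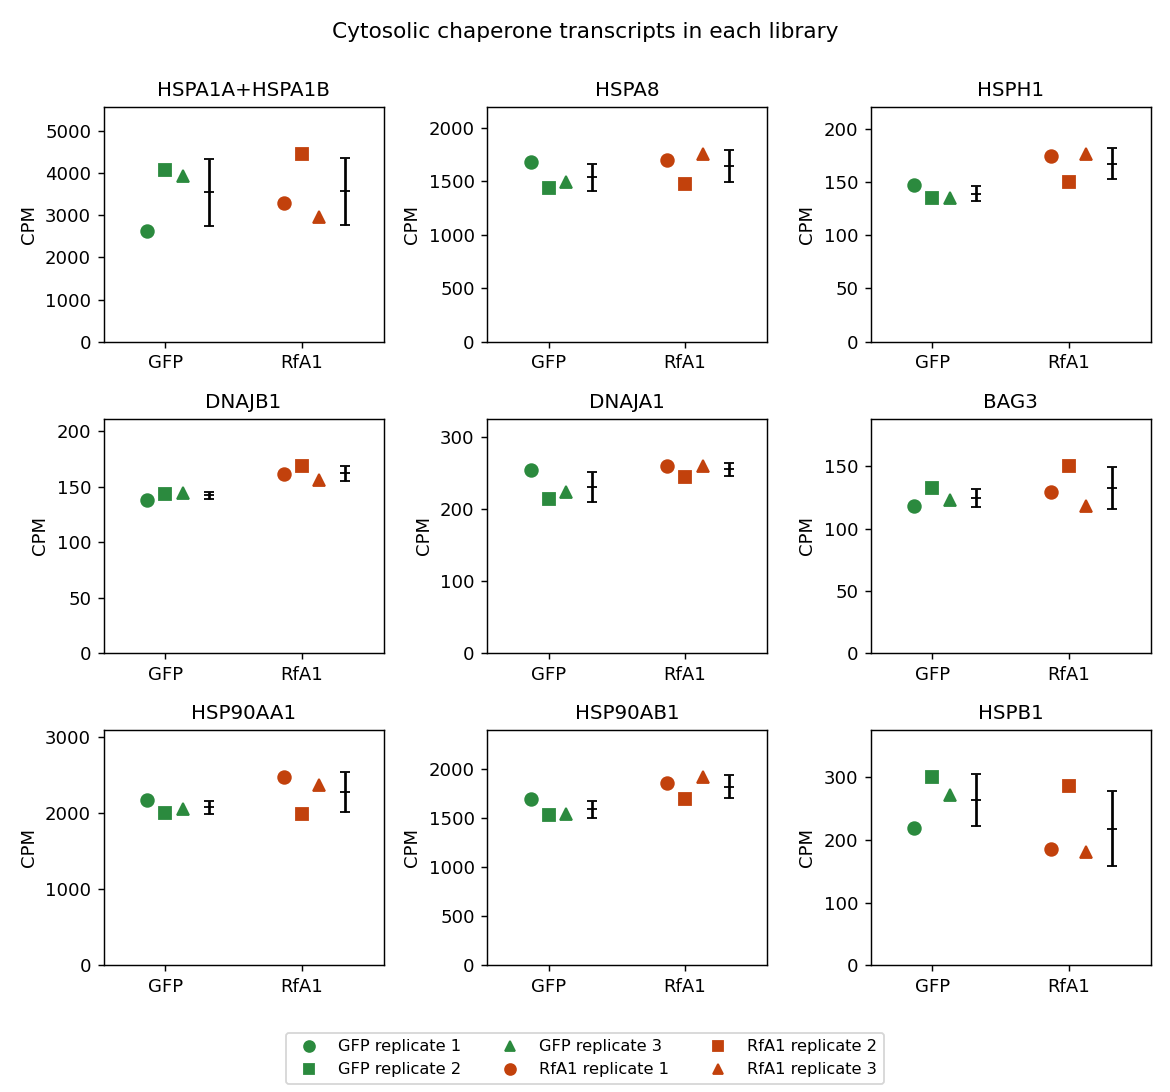
CPM of the chaperone transcripts (vertical axes, from 0) in the 3 GFP and 3 RfA1 libraries, with the mean and SD of each group in black and HSPA1A and HSPA1B as their sum. The RfA1 libraries lie above all GFP libraries for HSPH1 and DNAJB1, and the groups overlap for the others.

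The libraries held 10272306 to 11566284 estimated counts. The 10 chaperone genes took 0.912% to 0.983% of each GFP library and 1.01% to 1.04% of each RfA1 library, a difference that was not tested. Markers of the line were present in all libraries, at 14.8 to 24.6 TPM for LIN28B, 3.43 to 6.16 for PAX2, 42.7 to 51.7 for NEFL, 48.7 to 66.2 for NEFM and 578 to 724 for VIM. Those of blood (PTPRC), liver (ALB), endothelium (PECAM1) and of the fibroblast gene DCN did not exceed 0.62 TPM, and COL1A1 lay between 8.20 and 10.1 TPM. A trend with the GC content of transcripts also separated libraries. The slope of log2 CPM on GC content, relative to the mean of all libraries, was -0.037, 0.13 and 0.081 per 10 percentage points in GFP replicates 1, 2 and 3 and -0.11, 0.091 and -0.15 in RfA1 replicates 1, 2 and 3. RfA1 replicate 2 therefore stood with GFP replicates 2 and 3, and GFP replicate 1 with RfA1 replicates 1 and 3. Several chaperone genes were higher or lower in the libraries with a negative slope, and whether the trend is the cause was not tested. Values after a correction of each library for GC content are given beside theirs. Slope and group partly go together in these libraries, so the correction can also change a difference between the groups, and the 2 cannot be fully told apart.

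HSPA1A and HSPA1B encode the stress-inducible HSP70. The genes lie next to each other on chromosome 6 (31815543 to 31817942 and 31827738 to 31830254 in GRCh38.p14), and their coding sequences of 1926 bases differed at 4 bases. Of the stretches of 50 bases in the HSPA1A transcript, 72.6% were found unchanged in that of HSPA1B, and 71.4% the other way round, whereas HSPA8 and HSPA1B shared 0 such stretches. A read that lies within such a stretch does not tell which gene it came from, and how the counting assigned shared reads is not given in the sources used here.
Nearly all counts stood under HSPA1B. HSPA1A held 0.272% to 0.451% of the counts of the pair, between 79.1 and 208 counts per library against 29055 to 46544 for HSPA1B. The split between the pair is uncertain, as are the 4.65 to 11.4 TPM listed for HSPA1A, and the sum of the pair is therefore tested as well. Taken singly, HSPA1A had 13.6 ± 5.84 (GFP) and 13.3 ± 2.86 CPM (RfA1, SD, n = 3) with a log2 fold change of -0.039 (SE 0.27, edgeR adjusted p = 0.957). HSPA1B had 3522 ± 790 and 3550 ± 786 CPM with one of 0.011 (SE 0.17, edgeR adjusted p = 0.977).

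The summed HSPA1A and HSPA1B transcripts stood at 2621, 4068 and 3918 CPM in GFP replicates 1, 2 and 3 and at 3287, 4453 and 2949 CPM in RfA1 replicates 1, 2 and 3. The highest and the lowest library were RfA1 replicate 2 and GFP replicate 1, and the groups overlapped. The means were 3536 ± 796 (GFP) and 3563 ± 789 CPM (RfA1; SD, n = 3), and the log2 fold change, fitted on the table with the summed pair, was 0.011 (standard error, SE, 0.17, edgeR adjusted p = 0.977). The 95% confidence interval of the fold ran from 0.780 to 1.30, and these libraries did not exclude folds within it. The interval is not a limit of detection. In bulk RNA, a change in the number of cells that express a gene and a change in RNA per cell cannot be told apart. Without GFP replicate 1 the log2 fold change was -0.17 and without RfA1 replicate 2 it was -0.18 (edgeR adjusted p = 0.534 and 0.622), and with GC content corrected for it was 0.13 (edgeR adjusted p = 0.763).

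HSPA8 encodes HSC70, the constitutive HSP70 that serves folding, clathrin uncoating and chaperone-mediated autophagy. Its transcripts stood at 1679, 1436 and 1491 CPM in the GFP libraries and at 1693, 1474 and 1756 CPM in the RfA1 libraries. The order of the libraries was nearly the reverse of that of the inducible pair, and the groups overlapped. The means were 1535 ± 127 and 1641 ± 148 CPM (SD, n = 3), a log2 fold change of 0.096 (SE 0.089, edgeR adjusted p = 0.622). After the GC correction it was 0.052 (edgeR adjusted p = 0.734). It was 0.16 without GFP replicate 1, 0.051 without GFP replicate 2, 0.17 without RfA1 replicate 2 and 0.044 without RfA1 replicate 3. In TPM, the inducible pair was 1.39 to 2.68 times as abundant as HSPA8 in every library, that is, in both groups.

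HSPH1 encodes HSP110, an HSP70 relative that acts as an exchange factor and in the dissolving of protein aggregates. It stood at 147, 135 and 135 CPM in the GFP libraries and at 174, 150 and 176 CPM in the RfA1 libraries. All RfA1 libraries were higher than all GFP libraries in CPM, with RfA1 replicate 2 nearest to them, and in TPM this library (64.5) lay below GFP replicate 1 (67.5). The means were 139 ± 6.84 and 167 ± 14.5 CPM (SD, n = 3), a fold of 1.20 with a 95% confidence interval from 1.05 to 1.37 and a log2 fold change of 0.27 (SE 0.088). Its p in edgeR's test was 0.0109 unadjusted and 0.267 adjusted, and 527 genes had a smaller p. After the GC correction the log2 fold change was 0.16 (edgeR adjusted p = 0.145).

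DNAJB1 encodes the heat-inducible J-protein (HSP40) that works with HSP70 in refolding. It stood at 138, 144 and 144 CPM in the GFP libraries and at 161, 169 and 156 CPM in the RfA1 libraries. The groups did not overlap, in CPM or in TPM, and the GFP libraries lay close together. From 142 ± 3.20 to 162 ± 6.74 CPM (SD, n = 3), the fold was 1.14 with a 95% confidence interval from 1.02 to 1.28. Its log2 fold change was 0.19 (SE 0.076), and its p in edgeR's test was 0.0296 unadjusted and 0.321 adjusted. Corrected for GC content, it was 0.22 (SE 0.054) with an adjusted p of 0.0489 from edgeR's test, so that DNAJB1 was the 1 chaperone gene of the 10 past the threshold there, against 1.49% of all tested genes.

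DNAJA1, a farnesylated J-protein that also escorts HSP90 clients, stood at 254, 215 and 224 CPM in the GFP libraries and at 261, 245 and 261 CPM in the RfA1 libraries. GFP replicate 1 lay between the RfA1 libraries. The log2 fold change was 0.15 (SE 0.085, edgeR adjusted p = 0.445) and, after the GC correction, 0.060.

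BAG3 encodes a co-chaperone that binds HSP70 and small heat shock proteins and directs aggregated clients to autophagy. It stood at 118, 132 and 123 CPM in the GFP libraries and at 129, 150 and 118 CPM in the RfA1 libraries. The highest library was RfA1 replicate 2, and RfA1 replicate 3 and GFP replicate 1 were level as the lowest. The log2 fold change was 0.091 (SE 0.098, edgeR adjusted p = 0.678) and, after the GC correction, 0.18 (adjusted p = 0.151). It was -0.0097 without RfA1 replicate 2.

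HSP90AA1 and HSP90AB1 encode the inducible and the constitutive cytosolic HSP90. HSP90AA1 stood at 2173, 2000 and 2053 CPM in the GFP libraries and at 2471, 1982 and 2373 CPM in the RfA1 libraries. RfA1 replicate 2 was the lowest of all 6 libraries and the other RfA1 libraries were the highest. The log2 fold change was 0.13 (SE 0.089, edgeR adjusted p = 0.498), and 0.070 after the GC correction. HSP90AB1 stood at 1696, 1535 and 1542 CPM in the GFP libraries and at 1860, 1695 and 1920 CPM in the RfA1 libraries, where GFP replicate 1 and RfA1 replicate 2 were nearly level. Its means were 1591 ± 91.0 and 1825 ± 117 CPM (SD, n = 3). The fold was 1.15 with a 95% confidence interval from 1.02 to 1.29 and the log2 fold change 0.20 (SE 0.078). Its p in edgeR's test was 0.0272 unadjusted and 0.320 adjusted, and after the GC correction the log2 fold change was 0.17 (edgeR adjusted p = 0.153). The ratio of HSP90AA1 to HSP90AB1 in TPM was 0.990, 1.01 and 1.03 (GFP) and 1.03, 0.903 and 0.956 (RfA1).

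HSPB1 encodes HSP27, a small heat shock protein that forms large oligomers and binds unfolded clients and actin without using ATP. It stood at 219, 300 and 272 CPM in the GFP libraries and at 186, 287 and 181 CPM in the RfA1 libraries. RfA1 replicates 1 and 3 were the lowest libraries, followed by GFP replicate 1, and RfA1 replicate 2 lay among the GFP libraries. The means were 264 ± 41.4 and 218 ± 59.5 CPM (SD, n = 3), a log2 fold change of -0.27 (SE 0.17, edgeR adjusted p = 0.455). After the GC correction the log2 fold change was -0.10 (SE 0.073, adjusted p = 0.526). HSPB1 and HSPA1A had log2 fold changes below 0 among the 10 genes, and for HSPA1A, whose value is uncertain, it was -0.039 and turned positive in several alternatives.

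**Figure D2:**
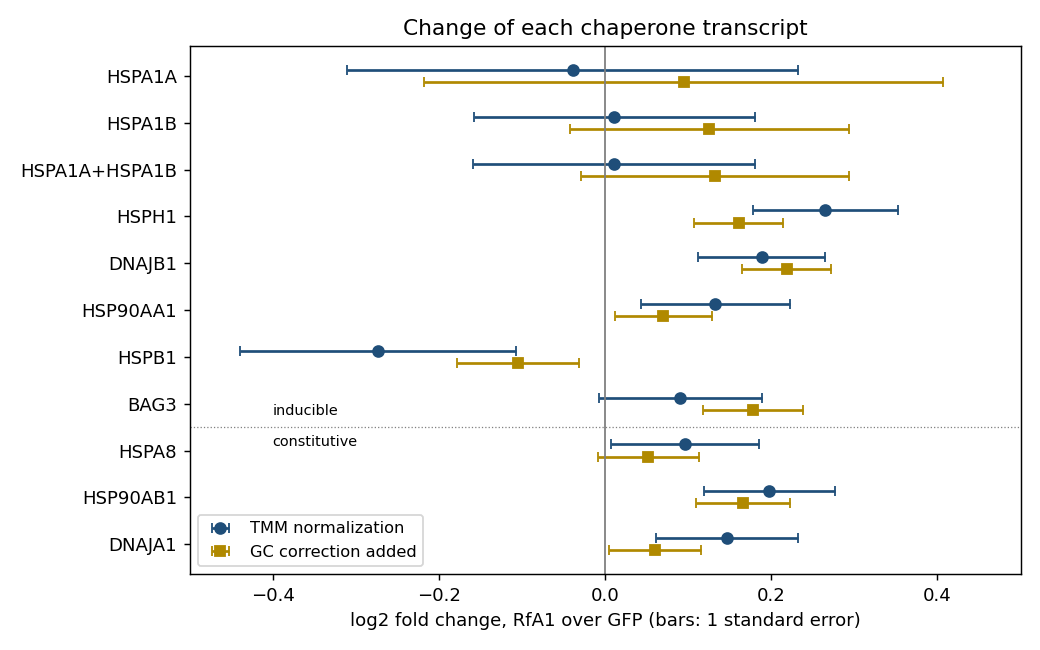
Log2 fold change (RfA1 over GFP, horizontal axis) of each chaperone gene and of the summed HSPA1A and HSPA1B, from edgeR's test with TMM normalization (circles) and with a GC correction added (squares); bars are 1 standard error. HSPB1 moves from -0.27 to -0.10 and HSPH1 from 0.27 to 0.16 with the correction, and DNAJB1 from 0.19 to 0.22.

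The transcripts of the chaperone genes themselves differ in GC content. It was 64.5% for HSPB1, 59.7% and 58.7% for HSPA1A and HSPA1B and 56.9% for BAG3, against a median of 49.1% over the tested genes, and 40.0% for HSPH1, 41.7% for DNAJA1, 45.2% for HSP90AA1, 47.0% for HSPA8 and 48.1% for HSP90AB1. The 3 libraries with a negative GC slope (GFP replicate 1 and RfA1 replicates 1 and 3) were the 3 lowest for the summed HSPA1A and HSPA1B and for HSPB1. The same 3 were the highest for HSPA8, DNAJA1, HSP90AA1 and HSP90AB1. DNAJB1, with 53.0% GC, and HSPH1, with the lowest GC content of the 10, had their GFP and RfA1 libraries apart in CPM whatever their slope. BAG3 did not follow the sign of the slope either, with RfA1 replicate 1 (129 CPM) above GFP replicate 3 (123 CPM). Leaving out RfA1 replicate 2, the RfA1 library with a positive slope, gave 4 of the 10 chaperone genes past the adjusted p in edgeR's test, against 20.1% of all tested genes. HSPH1, HSP90AA1 and HSP90AB1 were then higher and HSPB1 lower with RfA1, with log2 fold changes of 0.34, 0.22, 0.25 and -0.52. With the replicate number as a block, 2 of the 10 passed, against 4.81% of all tested genes, and with both the block and the GC correction 1 of the 10, against 3.32%.

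**Figure D3:**
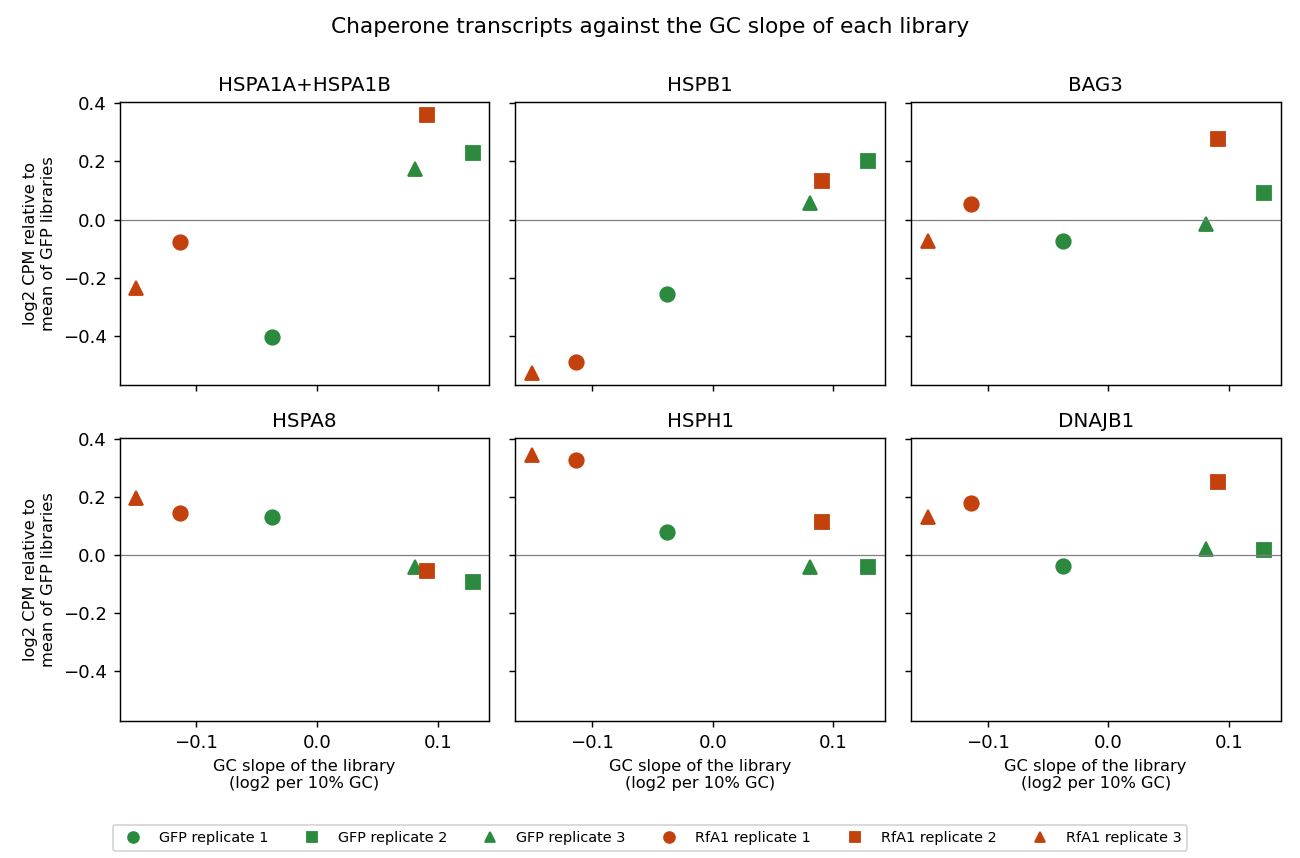
Log2 CPM of 6 chaperone transcripts with the GFP mean set to 0 (vertical axes) against the GC slope of each library (horizontal axes, log2 per 10 percentage points of GC). The libraries with negative slopes are lowest for HSPB1 and for the summed HSPA1A and HSPA1B and highest for HSPA8. The groups are apart at both ends for HSPH1 and for DNAJB1.

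For the comparison of inducible with constitutive members, the mean log2 CPM of each class was taken in every library. With the GFP mean set to 0, the 7 inducible genes, with HSPA1A and HSPA1B counted singly, stood at -0.21, 0.14 and 0.067 in GFP replicates 1, 2 and 3 and at 0.047, 0.20 and -0.064 in RfA1 replicates 1, 2 and 3. The 3 constitutive genes stood at 0.12, -0.081 and -0.042 in the GFP libraries and at 0.18, 0.042 and 0.22 in the RfA1 libraries. Both classes overlapped between the groups, and the library that was highest for one class was not so for the other. The difference of inducible minus constitutive was -1.73 ± 0.29 in GFP cells and -1.82 ± 0.23 in RfA1 cells (SD, n = 3). The RfA1 mean minus the GFP mean was -0.085 on the log2 scale, less than the SD within either group. Its direction was not stable. It was -0.083 with HSPA1A and HSPA1B as 1 summed member, -0.25 without GFP replicate 1 and -0.21 without RfA1 replicate 2. Without GFP replicate 2 it was 0.026, and without RfA1 replicate 3 it was 0.012. No test was made on these scores.

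Compared per length, in TPM, the summed HSPA1A and HSPA1B stood highest, with 2131 ± 440 (GFP) and 2231 ± 365 TPM (RfA1, SD, n = 3). The places of HSPA1A and HSPA1B as single genes depend on how shared reads were assigned and are not ranked. HSPA8, HSP90AB1 and HSP90AA1 followed with mean levels of 1109, 1040 and 1025 TPM and did not differ beyond their spread, since HSPA8 exceeded HSP90AB1 in 5 of 6 libraries and HSP90AB1 exceeded HSP90AA1 in 3 of 6. HSPB1 came next with 645 TPM, DNAJA1 with 166 and DNAJB1 with 107, each in this order in 6 of 6 libraries. BAG3 (77.7 TPM) and HSPH1 (69.5 TPM) were close, with BAG3 higher in 4 of 6.

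**Figure D4:**
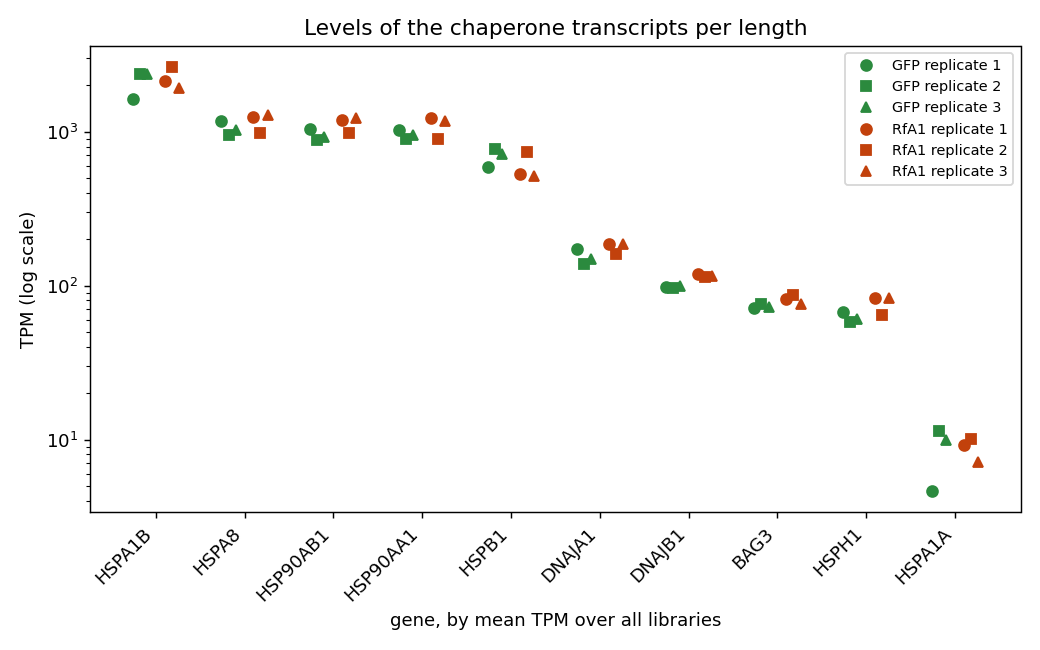
TPM (vertical log axis) of the 10 chaperone genes in each library, ordered by the mean over all 6 libraries. HSPA8 and both HSP90 genes lie together, above HSPB1. The places of HSPA1B (first) and HSPA1A (last) rest on the assignment of reads that they share, and their sum is not drawn.

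Beyond the 10 chaperones, 79 other genes of the heat shock and chaperone network were listed from general knowledge, of which 69 were tested. None passed the adjusted p in edgeR's test (0 also with DESeq2 and limma-trend). At an unadjusted p under 0.05, 12 of the 69 were higher and 1 was lower with RfA1, against 7.3% and 6.64% of all tested genes. Their median log2 fold change was 0.082, and 46 of the 69 lay above 0. The CPM groups did not overlap for 23 genes that were higher and 2 that were lower with RfA1, against 9.86% and 8.01% of all tested genes.

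Among the regulators, HSF1 itself stood at 112, 135 and 115 CPM in the GFP libraries and at 96.5, 126 and 106 CPM in the RfA1 libraries, a log2 fold change of -0.14 (edgeR adjusted p = 0.554). HSF2, a relative that can form trimers with HSF1, had 55.1 ± 4.54 and 66.4 ± 3.22 CPM (SD, n = 3) and a log2 fold change of 0.27, and HSF4 had one of -0.22 (edgeR adjusted p = 0.278 and 0.539). HSPA6, an HSP70 gene that is expressed almost solely under strong stress, had 0.630 to 0.971 CPM in the GFP libraries and 0.455 to 1.81 in the RfA1 libraries and was not tested. CRYAB, which encodes alpha-B crystallin, a small heat shock protein, was at 0 counts in 5 of the 6 libraries. HSF1, HSPA6 and CRYAB were chosen after their values were seen.

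The other J-proteins and exchange factors of HSP70 had log2 fold changes on both sides of 0, from -0.34 to 0.23. DNAJB2, a J-protein of neurons that sorts clients to the proteasome, had 45.9 ± 3.29 (GFP) and 36.4 ± 0.528 CPM (RfA1, SD, n = 3), with no overlap and a log2 fold change of -0.34. Its p in edgeR's test was 0.00284 unadjusted and 0.221 adjusted. DNAJA2 and the exchange factor BAG2 both had log2 fold changes of 0.23 and no overlap (edgeR adjusted p = 0.314 and 0.294). HSPBP1, an exchange factor as well, had one of -0.25, and HSPA14 and HSPA4 of the HSP70 family had 0.24 and 0.16, with adjusted p-values in edgeR's test of 0.390, 0.364 and 0.369. The 14 co-chaperones of HSP90 included 0 genes with an unadjusted p under 0.05. CHORDC1 and PTGES3 (p23) had the smallest p of them, with log2 fold changes of 0.17 and 0.15, and 7 of the 14 had no overlap between the groups and were higher with RfA1, against 9.86% of all tested genes.

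Of the small heat shock proteins outside the 10 genes, HSPB8, the partner of BAG3, was the 1 tested, with 6.64 ± 0.955 (GFP) and 8.91 ± 0.0753 CPM (RfA1, SD, n = 3) and a log2 fold change of 0.43 (SE 0.14, edgeR adjusted p = 0.278). The chaperonin TRiC and prefoldin, which fold actin and tubulin, had, at an unadjusted p under 0.05, 4 of 14 genes higher with RfA1 and 0 lower, against 7.3% and 6.64% of all tested genes. PFDN4, a prefoldin subunit, had the largest log2 fold change of the listed genes, 0.50 (SE 0.11), from 19.3 ± 1.70 to 27.4 ± 1.86 CPM (SD, n = 3). Its p in edgeR's test was 0.000556 unadjusted and 0.167 adjusted, and it passed after the GC correction. VBP1, another prefoldin subunit, had a log2 fold change of 0.29.

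Of the chaperones of organelles, 3 of 10 were higher and 0 lower at this unadjusted p, against the same 7.3% and 6.64%. GRPEL1, the exchange factor of mitochondrial HSP70, had 109 ± 8.91 and 141 ± 9.51 CPM (SD, n = 3) and a log2 fold change of 0.37 (SE 0.089, edgeR adjusted p = 0.184). HSPA9, the mitochondrial HSP70 itself, had a log2 fold change of 0.26 (edgeR adjusted p = 0.254). Of 7 other HSF1 targets 0 had an unadjusted p under 0.05, and UBB, a polyubiquitin gene, had a log2 fold change of -0.12 with no overlap between the groups (edgeR adjusted p = 0.449).

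**Figure D5:**
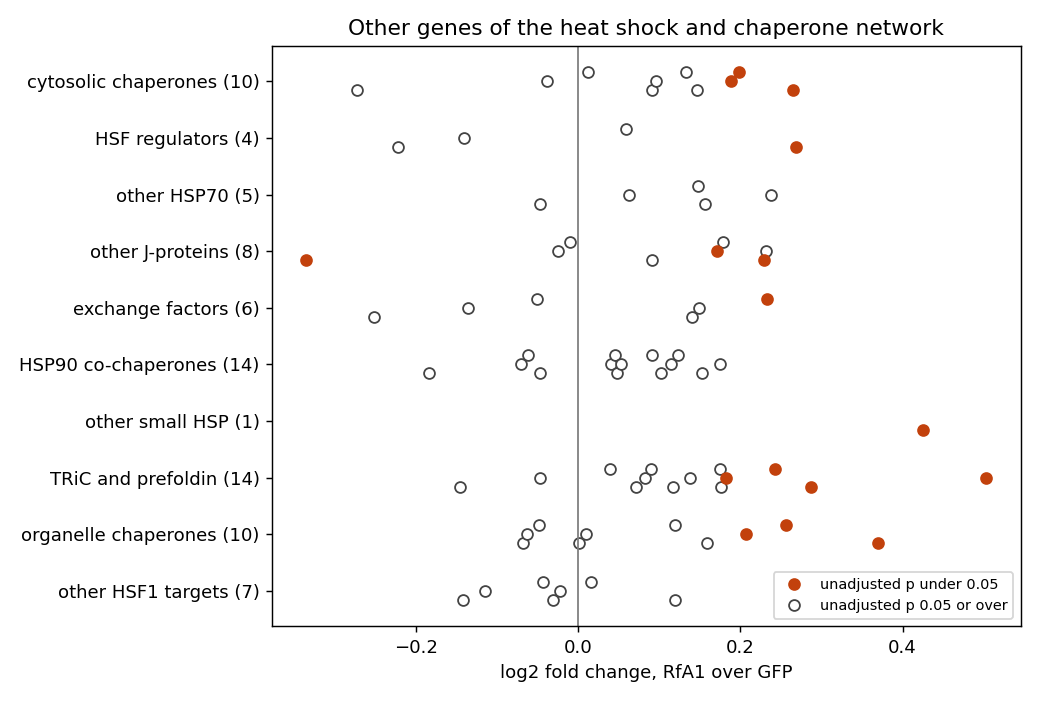
Log2 fold change (RfA1 over GFP, horizontal axis) of the 10 cytosolic chaperone genes and of the 69 tested genes of the wider network by list, with the number tested in parentheses; filled points have an unadjusted p under 0.05 in edgeR's test. PFDN4, at 0.50, lies farthest to the right and DNAJB2, at -0.34, farthest to the left, and no gene passed the adjusted p.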

How the data were processed

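Per the labels, RNA-seq was made from HEK-293T cells in 3 GFP and 3 RfA1 libraries. The submitters' processing notes name HISAT and GRCh38.p13, and the counting tool and annotation are not given in the sources used here. The authors deposited estimated counts without normalization (7.39% to 8.02% of a library's values are not whole), TPM scaled to one total per library, and FPKM. FPKM and the authors' averages were not used.

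Estimated counts were rounded, filtered by filterByExpr (minimum count 10, minimum total count 15), normalized by TMM and tested in edgeR 4.0.16 (R 4.3.3) by the robust quasi-likelihood method, with two-sided p-values adjusted by Benjamini-Hochberg. DESeq2 1.42.0 and limma 3.58.1 (log2(TPM + 1) and log2(TPM + 0.1)) were alternatives. A GC correction entered a spline with 5 degrees of freedom per library as an offset, with GC content of the longest GENCODE 29 transcript for 98.2% of genes. Other alternatives were other normalizations and filters, the replicate number as a block, and each library left out in turn. The interval of a fold change covers the spread between libraries and the counting error. The tests were also run on simulated counts with a common dispersion and no GC trend. That run therefore does not cover the GC trend of these libraries. HSPA1A and HSPA1B were also tested as a sum.

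The members and lists were chosen with earlier results of these data known. Every member was named, and in each further list the up to 2 genes with the smallest p. The 5 genes most like the summed pair were those with the highest Pearson's r among genes whose log2 CPM averaged 1 or more. Some genes that these rules select are not reported here.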

Additional observations from a re-analysis of the deposited data

How the results depend on the processing

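After subtraction of group means, the GFP and RfA1 libraries of one number had correlations of 0.28 (replicate 1), 0.44 (replicate 2) and -0.17 (replicate 3), so the numbers were not taken to pair the samples. With the replicate block, 625 genes, 2 of the 10 chaperone genes (HSPH1 with a log2 fold change of 0.26 and HSPB1 with -0.29; adjusted p = 0.0412 and 0.0453 from edgeR's test) and 6 other heat shock genes passed, and the summed HSPA1A and HSPA1B had a log2 fold change of 0.016. The count of all genes was 33 with DESeq2, 6 with upper-quartile normalization, 20 without a filter, 4 with limma-trend at either pseudocount, 194 with the GC correction and 432 with the GC correction and the block. The chaperone genes past the threshold were 1 in each of the last 2 (DNAJB1 both times), and the other heat shock genes 1 and 3. With each library left out in turn, the counts ran from 0 to 2636 for all genes, 0 to 4 for the chaperone genes and 0 to 18 for the others, each highest without RfA1 replicate 2, and the log2 fold change of the summed pair ran from -0.18 to 0.13. The log2 fold change of HSPA1A, -0.039, turned to 0.087 and 0.11 in limma-trend with pseudocounts of 1 and 0.1, to 0.094 and 0.11 with the GC correction without and with the block, and with a library left out it ran from -0.35 to 0.23. That of HSPA1B ran from -0.18 to 0.13 and that of BAG3 from -0.0097 to 0.17 with a library left out. The other 7 genes kept their direction in all 16 alternatives. The group difference in inducible minus constitutive, -0.085, moved by less than 1 SD (0.29) in every alternative given here. It turned positive without GFP replicate 2 (0.026) and without RfA1 replicate 3 (0.012). No GC-corrected value of this difference is given. The causes were not tested. HSPA1A had the fewest counts of the 10 genes, 79.1 to 208 per library.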

Other observations

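Over the 6 libraries, the log2 CPM of the summed HSPA1A and HSPA1B was followed closely, among 12322 genes, by EPHB3, NEFM, DNAJC1 and GRID2IP (Pearson's r from 0.987 to 0.999), given as a description of 6 points that share libraries, depth and a GC trend. None of them is a cytosolic heat shock chaperone, and DNAJC1 is a J-protein of the endoplasmic reticulum. Their log2 fold changes between the groups lay between -0.025 and 0.027. Among the other chaperone genes, HSPA8 had the most negative r with the pair (-0.88) and BAG3 the most positive (0.81).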
